A study of Mus musculus with 24 samples.

Results

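The comparison described here ran along the diagonal of a layout of 2 treatments. It set CT26 tumours of NP1867-cultured cells in mice given anti-PD-1 against CT26 tumours with neither treatment. The tumours were chosen by their labelled titles, which gave 6 tumours labelled NP1867 antiPD1 and 6 labelled DMSO Isotype, 12 of the 24 tumours in the series. The other 12 tumours, 6 with anti-PD-1 alone and 6 with NP1867 alone, supplied the single-treatment changes against which each gene's total change was set. CT26 is a colon carcinoma line of BALB/c mice. The cells of all groups were cultured for 40 weeks before implantation, either with 0.5 uM NP1867, a PMS2 inhibitor, or with its DMSO vehicle, and were then placed under the skin of immunocompetent BALB/c mice. Mice were randomised on day 7, when tumours averaged near 50 mm3, to anti-PD-1 (a rat IgG2a, κ antibody, clone RMP1-14) or to its isotype control (rat IgG2a, κ, clone 2A3), each given at 5 mg/kg into the peritoneum on a schedule of 4 doses. The tumours were taken on day 19, 24 h after the last dose, from animals whose tumours were near the mean volume of their group, and were fixed in formalin and embedded in paraffin. The comparison group was therefore not untouched: it had the same long culture with vehicle and the same course of a control antibody.

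PD-1 is an inhibitory receptor on activated T cells, and antibodies that block it release those cells from inhibition by its ligand PD-L1. PMS2 is a subunit of MutLα, a complex of the mismatch repair pathway, and cells without mismatch repair collect replication errors, some of which create peptides that T cells can recognise. Such peptides are shown to T cells by MHC class I molecules on most cells and by MHC class II molecules on antigen-presenting cells, and interferon gamma from T cells and natural killer cells induces both.

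RNA was measured on NanoString's nCounter with its mouse panel for PanCancer Immune Profiling, which counts barcoded probes on RNA molecules directly. The deposited table held log2 values of 750 genes. Of these, 600 had a mean log2 value over the 24 tumours of at least log2 of 20 and were tested. Whole counts could be recovered from the values, and their sums ran from 62699 to 489839 in the DMSO isotype tumours and from 249656 to 687032 in the NP1867 anti-PD-1 tumours. DMSO isotype tumours 23 and 6 stood apart, with 62699 and 90640 counts and scaling factors of 5.46 and 4.09 that raised each count in them. All 6 NP1867 anti-PD-1 tumours had more than 200000 counts. The difference between the groups in log2 total count was 0.914 and did not pass an exact permutation test (two-sided p = 0.158, n = 6 and 6), and nor did that in log2 scaling factor (-0.406, p = 0.502). Of the defining carcinoma markers, Epcam was low in every tumour of both groups (2.08 to 5.26 and 3.38 to 5.95 on the log2 scale), and the leukocyte marker Ptprc was at 8.12 to 9.13 and 8.92 to 10.23. In bulk tumour RNA, a change in the number of cells of a type and a change in RNA per cell cannot be told apart. The labels name no separate cultures, so the drug and any other difference between the cell cultures cannot be told apart either, and the p-values cover the spread between tumours picked for a volume near their group's mean.

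In the deposited values, tumours with both treatments had higher levels than the DMSO isotype tumours of many genes of antigen presentation, complement, matrix and leukocytes. Of the 600 tested genes, 200 passed an adjusted p of 0.05 in limma, which is 33.3% of the genes tested. Of these, 186 were higher after both treatments (31%) and 14 were lower (2.33%). An unadjusted p under 0.05 was found for 294 (49%). The median change over all tested genes was 0.52 on the log2 scale, and 496 of the 600 had a positive change. Each tumour's median over the tested genes was 7.66 ± 0.26 (SD, n = 6) after both treatments and 7.16 ± 0.24 (SD, n = 6) in the DMSO isotype group (exact permutation p = 0.013). When each tumour was centred on its own median, 53 genes were higher and 89 lower, and quantile normalisation gave 58 higher and 93 lower. All 53 genes higher after centring were among the 186, and all 14 lower genes were still lower. Centring moved every gene's change down by 0.496, so those 14 falls could only grow. The count of calls also moved with single tumours: 331 genes passed without DMSO isotype tumour 23, 126 without tumour 55 of the same group and 93 without tumour 78 of the combined group. Without the tumours under 200000 counts, 2 DMSO isotype and 2 DMSO anti-PD-1 tumours, 343 genes were higher and 23 lower.

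The 19 largest rises among the genes that passed were between 1.62 and 2.68 on the log2 scale, or 3.06-fold to 6.42-fold. In all 19, each of the 6 combined tumours lay above the mean of the DMSO isotype tumours, and for 6 of the 19 the groups did not overlap. The 19 were picked by the change between these same groups, so this separation describes them and is no further test. Over all tested genes the groups did not overlap for 29 (4.83%), of which 26 were higher and 3 lower after both treatments. After centring, the 19 rises were between 1.12 and 2.19, and 17 of them still passed. The exceptions were Col1a1 and Cmah, with adjusted p-values of 0.0557 and 0.0724.

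The lowest p of the comparison belonged to Il1rn, which encodes the interleukin-1 receptor antagonist, a secreted protein that blocks the interleukin-1 receptor. Its log2 values in the DMSO isotype tumours were 6.24 at the lowest, 6.91 at the median and 7.70 at the highest. The combined tumours had 8.25, 9.28 and 9.59. Every combined tumour was thus above every DMSO isotype tumour. The log2 change was 2.10 (SE 0.30), a fold of 4.30, with an adjusted p of 0.000143 in limma and an exact permutation p of 0.0022, the smallest that 6 against 6 tumours allow. Il1rn passed in all 38 other settings tried, and its change was 1.61 after centring. The 38 settings were not independent, as they included leaving out each of the 24 tumours in turn. Leaving out a tumour of the single-treatment groups moves only the shared spread and not the combined log2 change.

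**Figure D1:**
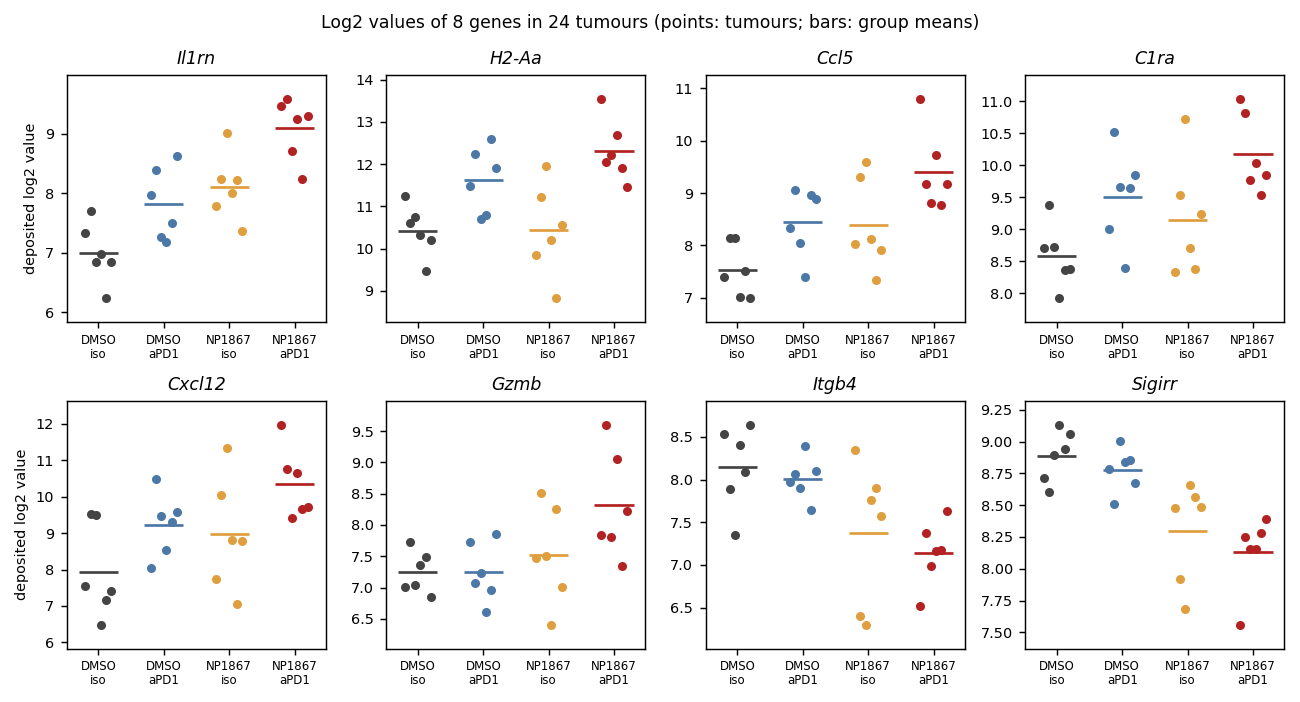
Deposited log2 values of 8 genes (vertical axes, which do not start at 0) in the 24 tumours, with tumours of DMSO cells at the left of a panel and of NP1867 cells at the right (iso, isotype antibody; aPD1, anti-PD-1); each point is a tumour and each bar a group mean. For Il1rn, H2-Aa, Ccl5 and C1ra all 6 NP1867 anti-PD-1 tumours lie above all 6 DMSO isotype tumours, for Sigirr all 6 lie below, and for Cxcl12, Gzmb and Itgb4 the groups overlap.

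MHC class II genes formed the list with the highest median change. Of 9 tested members, 7 rose and 0 fell, against 31% of all tested genes that rose. The median over the members was 1.59 against 0.52 over all genes (1.09 against 0.02 after centring, with 6 members passing). After centring, 53 of all 600 tested genes were higher and 89 lower. Counts after centring in this and later lists stand against these. The class II list had been picked with earlier results of these data known. Because the class II promoters carry well-known motifs, the reference sequences around the start of 4 MHC genes are shown: the class II genes with the largest rise (H2-Eb1) and with no overlap between groups (H2-Aa), a class II gene that did not pass (H2-Ob, chosen for display after its values were seen), and the class I gene with the largest rise among those named (H2-T23). Each runs 5′ to 3′ on the strand of its gene from 250 bases before the RefSeq start to 50 bases after it, in build GRCm38.p6, whose reference strain is not BALB/c. Capitals mark matches on either strand to a Y box core (GATTGG), an X box, a gamma-activated site (TTCNNNGAA) or an interferon-stimulated response element, and no capitals overlap between motifs in these 4 windows.
H2-Eb1: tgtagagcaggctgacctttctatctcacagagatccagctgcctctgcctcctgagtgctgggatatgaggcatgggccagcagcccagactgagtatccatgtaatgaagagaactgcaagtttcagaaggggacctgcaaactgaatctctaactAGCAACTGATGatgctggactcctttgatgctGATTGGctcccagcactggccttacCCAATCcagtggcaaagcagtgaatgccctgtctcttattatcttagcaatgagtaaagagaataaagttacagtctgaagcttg
H2-Aa: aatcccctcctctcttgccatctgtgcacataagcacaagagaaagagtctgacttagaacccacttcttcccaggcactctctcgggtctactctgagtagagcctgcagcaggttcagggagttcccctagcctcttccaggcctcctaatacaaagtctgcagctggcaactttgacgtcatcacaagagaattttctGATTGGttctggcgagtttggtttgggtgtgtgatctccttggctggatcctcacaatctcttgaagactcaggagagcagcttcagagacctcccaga
H2-Ob: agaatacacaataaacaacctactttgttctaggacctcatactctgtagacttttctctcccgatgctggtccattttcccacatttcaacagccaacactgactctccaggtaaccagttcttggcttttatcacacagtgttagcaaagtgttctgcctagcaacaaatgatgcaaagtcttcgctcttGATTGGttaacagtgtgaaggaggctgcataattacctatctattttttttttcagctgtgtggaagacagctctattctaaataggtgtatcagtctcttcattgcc
H2-T23: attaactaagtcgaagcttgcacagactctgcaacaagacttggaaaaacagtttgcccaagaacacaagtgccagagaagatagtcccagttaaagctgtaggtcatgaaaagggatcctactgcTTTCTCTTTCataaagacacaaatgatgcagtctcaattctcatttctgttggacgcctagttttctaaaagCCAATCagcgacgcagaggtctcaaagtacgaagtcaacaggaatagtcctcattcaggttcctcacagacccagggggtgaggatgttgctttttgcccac

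The H2-Eb1 window, chr17:34305617-34305916 on the plus strand, held an X box match at position -92 and Y box cores at -60 and, reversed, at -35, counted from the start. The H2-Aa window, chr17:34287774-34288073 on the minus strand, held a Y box core at -49, and the H2-Ob window, chr17:34238655-34238954 on the plus strand, held one at -58. The H2-T23 window, chr17:36032652-36032951 on the minus strand, held a reversed Y box core at -52 and a reversed interferon-stimulated response element at -124. Among the 9 tested class II genes, 5 had a promoter in the RefSeq table, with 6 windows. All 5 genes held a Y box core match in at least 1 window, 1 an X box match and 1 a gamma-activated site match. Only exact matches to the given letters were counted, so variants of a motif would be missed. The H2-DMa window at chr17:34122582-34122881 held no match. The shares that follow count single windows and not genes. In 32851 promoters of the same length, the Y box core was found in 16.1%, the X box in 0.968%, the gamma-activated site in 8.3% and the interferon-stimulated response element in 3.44%. These matches describe letters in a reference window. H2-Ob, which held a Y box core as H2-Aa did, had a change of 0.51 that did not pass (adjusted p = 0.254).

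H2-Aa, the alpha chain of the class II molecule I-A, had log2 values of 9.47, 10.45 and 11.24 (lowest, median and highest) in the DMSO isotype tumours. The combined tumours were at 11.47, 12.12 and 13.55, above every control. Its change was 1.88 (SE 0.44, 3.69-fold, adjusted p = 0.00511). H2-Ab1, the beta chain of the same molecule, also showed no overlap: the DMSO isotype tumours were at 8.29, 9.70 and 10.54 and the combined tumours at 10.56, 11.12 and 12.43. The change of H2-Ab1 was 1.70 (SE 0.45, adjusted p = 0.00931).

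H2-Eb1, the beta chain of the other class II molecule, I-E, had the largest change of the list, 2.21 (SE 0.54, 4.64-fold, adjusted p = 0.00669). Its groups overlapped, at 7.80, 9.09 and 11.54 in the DMSO isotype tumours against 10.47, 11.27 and 12.88, because DMSO isotype tumour 23 was higher than 4 of the combined tumours. Ciita, the coactivator that switches on class II genes, rose by 1.86 (SE 0.41, adjusted p = 0.00422). H2-DMa, part of the molecule that loads peptide onto class II, rose by 1.43 (SE 0.29, adjusted p = 0.00255), with no overlap between groups (7.24 to 8.12 against 8.33 to 9.83).

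Of 14 tested genes of MHC class I and peptide loading, 9 rose and 0 fell, against 31% of all genes that rose. The list's median was 0.67, and after centring the median was 0.18 and 1 member passed. H2-T23, which encodes the non-classical molecule Qa-1, rose by 1.12 (SE 0.28, adjusted p = 0.00682), from 8.64, 9.39 and 10.05 to 9.89, 10.56 and 11.06 (lowest, median and highest), and remained past the threshold after centring (change 0.63, adjusted p = 0.0201). H2-K1, a classical class I heavy chain, changed by 0.76 (SE 0.18, adjusted p = 0.00544) and by 0.26 after centring, where it did not pass (adjusted p = 0.208). The same held for Tapbp, the tapasin that bridges class I to the peptide transporter (0.78, adjusted p = 0.00519, and 0.28 after centring), and for Psmb9, an immunoproteasome subunit (0.96, adjusted p = 0.00903, and 0.47 after centring). Cross-hybridisation between probes of closely related class I genes was not tested.

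Genes of the interferon gamma pathway rose in 11 of 17 tested members and fell in none, against 31% of all genes that rose. The list's median was 0.78. After centring the median was 0.29, with 5 members higher and 1 lower, against 53 and 89 of all 600 tested genes. Irf8, a transcription factor of dendritic cells and macrophages that interferon gamma induces, rose by 1.16 (SE 0.20, 2.23-fold, adjusted p = 0.000875). Its values were 7.20, 7.30 and 7.81 in the DMSO isotype tumours and 8.01, 8.52 and 9.22 in the combined tumours, with no overlap. Jak1, a kinase of the interferon receptors, rose by 0.64 (SE 0.17, adjusted p = 0.00903). The two-sided test did not pass for Ifng itself, whose change was 0.54 (SE 0.39, adjusted p = 0.259), with 3.33, 4.31 and 6.03 in the DMSO isotype tumours and 4.33, 5.09 and 5.67 in the combined tumours. The highest Ifng value of the comparison, 6.03, was that of low-count tumour 23, and quantile normalisation turned the sign of its change to -0.14.

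Of 19 tested genes stimulated by type I interferon, 2 rose and 0 fell, against 31% of all genes that rose, and their median of 0.49 was below the 0.52 of all genes and at -0.008 after centring. The members that passed were Irf7, the transcription factor that amplifies type I interferon, which rose by 1.03 (SE 0.31, adjusted p = 0.0161), and Ifitm1, a membrane restriction factor, which rose by 0.90 (SE 0.31, adjusted p = 0.0263). Neither passed after centring. Isg20 and Ifi35, also induced by interferon, were at 0.52 and 0.48 with adjusted p-values of 0.0578 and 0.0590, and the sign of Ifi35 turned to -0.01 after centring. The difference between this list and the interferon gamma list was not tested.

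Of 9 tested T cell markers 4 rose and 0 fell, against 31% of all genes that rose. The list's median was 0.80 (0.30 after centring, with 1 passing). Thy1, a surface protein of T cells and also of fibroblasts, rose by 1.39 (SE 0.32, adjusted p = 0.00484). Cd3d and Cd3e, chains of the T cell receptor complex, rose by 1.05 (adjusted p = 0.0164) and 0.91 (adjusted p = 0.0476). Cd8a, the coreceptor of cytotoxic T cells, rose by 0.91 (SE 0.33, adjusted p = 0.0372), with values of 3.96, 5.27 and 6.62 in the DMSO isotype tumours and 5.73, 6.32 and 6.63 in the combined tumours. Tumour 23, at 6.62, was the only DMSO isotype tumour above the median of the combined group. Cd3d, Cd3e and Cd8a did not pass after centring. Cd4, the coreceptor of helper T cells, was at 0.80 (SE 0.41, adjusted p = 0.116). The summed linear level of the T cell markers ran from 8.95 to 10.49 on the log2 scale in the DMSO isotype tumours and from 10.07 to 11.26 in the combined tumours; their part in the other changes was not tested.

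Of 8 tested genes of cytotoxic cells, 2 rose (Cd8a and Gzmb) and 0 fell, a share of 25% and below the 31% of all genes that rose. The list's median was 0.70, or 0.20 after centring, where 0 of the 8 passed. Gzmb, granzyme B of the killing granule, was at 6.86, 7.20 and 7.73 in the DMSO isotype tumours and at 7.35, 8.03 and 9.60 in the combined tumours. Its change was 1.07 (SE 0.35, 2.09-fold, adjusted p = 0.0236), with 5 of 6 combined tumours above every control, and 0.57 after centring, where it did not pass. Prf1, the pore-forming perforin, had a change of 0.99 that did not pass (SE 0.40, adjusted p = 0.0601), with combined tumours 30 and 45 at 10.41 and 9.74 and the other 4 at 8.40 or below. Eomes, a transcription factor of effector cells, was at 0.72 (adjusted p = 0.0915).

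Natural killer receptors rose in 4 of 9 tested members and fell in none, against 31% of all genes that rose. These were Klrg1, an inhibitory receptor also found on effector T cells, at 1.19 (adjusted p = 0.0156), Klrk1, the activating receptor NKG2D, at 1.03 (adjusted p = 0.0236), Klrc1, the inhibitory NKG2A, at 0.98 (adjusted p = 0.0331), and Klrd1, its partner CD94, at 0.79 (adjusted p = 0.0479). The list's median was 0.58, close to that of all genes, at 0.08 after centring and at -0.07 after quantile normalisation. After centring or with Ptprc as a covariate 0 of the 9 were higher, and none of the 4 named passed after quantile normalisation. Among the markers of B cells, 0 of 5 tested members passed, and their median of 0.52 turned to -0.23 after quantile normalisation. In T cell receptor signalling 9 of 12 tested genes rose and 0 fell, against the same 31% of all genes. Nfatc4, a factor of the calcium pathway, was highest at 1.54 (SE 0.45, adjusted p = 0.0146), and the kinases Fyn and Syk rose by 0.66 and 0.94 (adjusted p-values of 0.00925 and 0.00903). For Fyn the groups did not overlap (7.61 to 7.97 against 8.06 to 9.02). The median of this list was 0.72, or 0.23 after centring, where 2 members were higher and 1 lower.

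Among checkpoints and co-stimulatory molecules, 11 of 18 tested genes rose and 0 fell, against 31% of all genes that rose. The list's median was 0.87. After centring it was 0.37, and 2 passed. Cd274, which encodes PD-L1, the ligand of PD-1, had values of 7.17, 7.97 and 8.71 in the DMSO isotype tumours and 8.57, 9.43 and 9.85 in the combined tumours. Its change was 1.37 (SE 0.26, 2.58-fold, adjusted p = 0.00216), with 5 of 6 combined tumours above every control, and it passed in all 38 other settings. Pdcd1, PD-1 itself, rose by 0.93 (SE 0.29, adjusted p = 0.0200) and was at 0.43 after centring (adjusted p = 0.218). Icos, a co-stimulatory receptor of activated T cells, rose by 1.37 (SE 0.31, adjusted p = 0.00460), and its ligand Icosl by 0.88 (adjusted p = 0.00983). Tnfrsf9, the receptor 4-1BB of recently activated T cells, rose by 1.22 (SE 0.31, adjusted p = 0.00886) with no overlap, from 4.62 to 6.49 in the DMSO isotype tumours and from 6.92 to 7.89 in the combined tumours. Neither Tnfrsf9 (0.72, adjusted p = 0.12) nor Icosl (0.38, adjusted p = 0.16) passed after centring.

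The regulatory T cell list held 5 tested genes, of which 3 rose, against 31% of all genes. Its median after centring was 0.41, with 1 member passing, Il2ra. Il2ra, the alpha chain of the interleukin-2 receptor, was at 4.35, 4.74 and 6.15 in the DMSO isotype tumours and at 5.85, 6.67 and 7.62 in the combined tumours, a change of 1.74 (SE 0.32, adjusted p = 0.00186). Tumour 23 held the highest DMSO isotype value. Ctla4, an inhibitory receptor, rose by 1.21 (adjusted p = 0.0121) and Ikzf2, the transcription factor Helios, by 0.90 (adjusted p = 0.0138), and neither passed after centring (adjusted p-values of 0.0911 and 0.169). Foxp3, the defining transcription factor of these cells, did not pass, at 0.51 (SE 0.40, adjusted p = 0.310), and combined tumour 67 had 3 counts of it.

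Of 12 tested macrophage markers 4 rose and 0 fell, a share close to the 31% of all tested genes, with a median of 0.77. After centring the median was 0.27, and 1 marker was higher and 1 lower. Slc11a1, a metal transporter of the phagosome, rose by 1.25 (SE 0.25, adjusted p = 0.00243), from 6.16, 6.79 and 7.32 to 7.17, 7.91 and 8.64. Cd68, a lysosomal protein, rose by 0.88 (adjusted p = 0.0193), Arg1, arginase, by 0.89 (adjusted p = 0.0321), and Cybb, the oxidase subunit of phagocytes, by 0.82 (adjusted p = 0.0272). Csf1r, the receptor that macrophages need for survival, was at 0.61 and did not pass (SE 0.31, adjusted p = 0.116). With Ptprc as a covariate its change was -0.01. The summed level of the macrophage markers was 12.10 to 13.19 in the DMSO isotype tumours and 12.24 to 13.58 in the combined tumours on the log2 scale.

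Dendritic cell genes rose in 4 of 6 tested members, against 31% of all genes that rose, with a median of 1.06 (0.56 after centring). Ccr7, the receptor that guides dendritic cells and T cells to lymph nodes, rose by 1.37 (SE 0.34, adjusted p = 0.00682), from 4.01, 4.76 and 6.15 to 5.23, 6.36 and 7.31. Cd1d1, which presents lipids, rose by 1.22 (adjusted p = 0.0240) and Itgae, an integrin of some dendritic cells and resident T cells, by 0.90 (adjusted p = 0.0236), and Irf8 was the other member that rose. Xcr1, the receptor of cross-presenting dendritic cells, was at 0.57 and did not pass (adjusted p = 0.142). Of 10 listed markers of neutrophils only 3 were tested, and 2 of these rose, against 31% of all genes. The other listed markers were absent from the table or too low to test. S100a8, a subunit of calprotectin, rose by 1.85 (SE 0.56, adjusted p = 0.0164), with combined tumour 78 at 10.23 and the next at 8.65. Csf3r, through which G-CSF acts on neutrophils, rose by 1.37 (adjusted p = 0.00383) and Cxcr2, a chemokine receptor of neutrophils, was at 1.17 (adjusted p = 0.0602). Of 6 tested genes of mast cells, basophils and eosinophils 2 rose, near the 31% of all genes. They were the mast cell proteases Tpsab1 (1.38, adjusted p = 0.00708) and Cma1 (1.22, adjusted p = 0.0158), of which Tpsab1 passed after centring (adjusted p = 0.0380) and Cma1 did not (adjusted p = 0.0680).

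Chemokines that attract T cells rose in 6 of 12 tested genes, against 31% of all genes that rose. The list's median was 0.78 (0.29 after centring, with 2 passing). Ccl5, a chemokine of activated T cells and macrophages, was at 6.99, 7.46 and 8.15 in the DMSO isotype tumours and at 8.77, 9.17 and 10.81 in the combined tumours. Its change of 1.87 (SE 0.38, 3.66-fold, adjusted p = 0.00261) came with no overlap and passed in all 38 other settings. Ccl22, a ligand of Ccr4, rose by 1.20 (adjusted p = 0.0101), and Cxcl16, a ligand of Cxcr6, by 0.97 (adjusted p = 0.0265). Of 12 tested chemokines and receptors of monocytes and neutrophils, 4 rose, near the 31% of all genes, and 1 fell. Ccl8, Ccl4 and Ccl3 rose by 1.28, 1.09 and 1.02 (adjusted p-values of 0.0213, 0.00726 and 0.0131). After centring 0 of the 12 were higher and 1 was lower. The member that fell was Ccl12, a monocyte chemokine of the mouse, from 9.05, 9.58 and 10.49 to 8.60, 9.20 and 9.50, a change of -0.61 (SE 0.22, adjusted p = 0.0404) with an exact permutation p of 0.0519.

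Inflammatory cytokines and genes of NF-kB signalling rose in 6 of 18 tested members, near the 31% of all genes, and fell in 1, with a median of 0.38 that turned to -0.12 after centring. Tnfaip3, the feedback inhibitor A20, rose by 0.89 (adjusted p = 0.00682), Il1b by 0.94 (adjusted p = 0.0236) and Tnf by 0.77 (adjusted p = 0.0240). None of these passed after centring. Nfkb2, the precursor of the non-canonical subunit, fell by 0.38 (SE 0.12, adjusted p = 0.0193), from 10.34 to 10.92 in the DMSO isotype tumours to 9.91 to 10.39 in the combined tumours. Sigirr, a receptor that restrains interleukin-1 and Toll-like receptor signalling, fell while Il1rn rose. It had 8.60, 8.91 and 9.13 in the DMSO isotype tumours and 7.56, 8.21 and 8.39 in the combined tumours, so that no values overlapped. The change of Sigirr was -0.76 (SE 0.17, adjusted p = 0.00422, exact permutation p = 0.0022).

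Complement genes, which encode a cascade of serum proteins that also mark cells for uptake, rose in 10 of 18 tested members and fell in none. Of all tested genes 31% rose. The median of the complement list was 1.08, or 0.58 after centring. There 6 members were higher and 2 lower, against 53 and 89 of all 600 tested genes. C3, the central component, was at 7.68, 8.37 and 10.72 in the DMSO isotype tumours and at 10.49, 10.75 and 11.90 in the combined tumours, a change of 2.19 (SE 0.63, 4.57-fold, adjusted p = 0.0145). The C3 values of the low-count tumours 6 and 23, 10.14 and 10.72, were the highest of the controls. C1ra and C1s1, the proteases of the classical pathway's first complex, rose by 1.60 (SE 0.38, adjusted p = 0.00544) and 1.54 (SE 0.37, adjusted p = 0.00602), and C2, which they cleave, by 1.76 (SE 0.42, adjusted p = 0.00544). For none of these did the groups overlap (C1ra 7.92 to 9.38 against 9.53 to 11.04, C2 4.33 to 6.45 against 6.46 to 8.62). Serping1, the inhibitor of that first complex, rose by 1.75 (SE 0.59, adjusted p = 0.0252).

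Of 6 tested fibroblast and matrix genes 4 rose and 0 fell, against 31% of all genes that rose. The list's median was 1.47 (0.97 after centring, with 3 passing). Col3a1, a fibrillar collagen chain, was at 9.79, 10.82 and 13.14 in the DMSO isotype tumours and at 12.35, 12.89 and 15.29 in the combined tumours. Its change was 2.31 (SE 0.72, adjusted p = 0.0191), and DMSO isotype tumour 6 was above 4 of the 6 combined tumours. Col1a1, a chain of type I collagen, rose by 1.99 (SE 0.70, adjusted p = 0.0326) and Fap, a protease of activated fibroblasts, by 1.54 (SE 0.49, adjusted p = 0.0208). The summed level of this list was 12.38 to 14.42 in the DMSO isotype tumours and 13.50 to 16.21 in the combined tumours on the log2 scale. Its part in the changes of complement genes was not tested.

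Cxcl12, a chemokine made by stromal cells, rose by 2.42 (SE 0.63, 5.36-fold, adjusted p = 0.00903), from 6.49, 7.48 and 9.52 to 9.42, 10.18 and 11.98. The only overlap came from tumours 6 and 23, at 9.52 and 9.50, and without the tumours under 200000 counts the change was 3.21. Lbp, which binds bacterial lipopolysaccharide, had the largest change of all, 2.68 (SE 0.68, 6.42-fold, adjusted p = 0.00819), from 3.55, 4.86 and 7.03 to 6.92, 7.95 and 8.89. Tumours 6 and 23 again held the highest control values of Lbp, 7.03 and 6.26. Ccl11, the eosinophil chemokine eotaxin, rose by 1.97 (adjusted p = 0.0184). Abca1 and Abcg1, transporters that export cholesterol from macrophages and other cells, rose by 1.62 (SE 0.33, adjusted p = 0.00259) and 1.72 (SE 0.38, adjusted p = 0.00422), and Abcg1 did so without overlap (7.53 to 9.12 against 9.13 to 10.92).

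**Figure D2:**
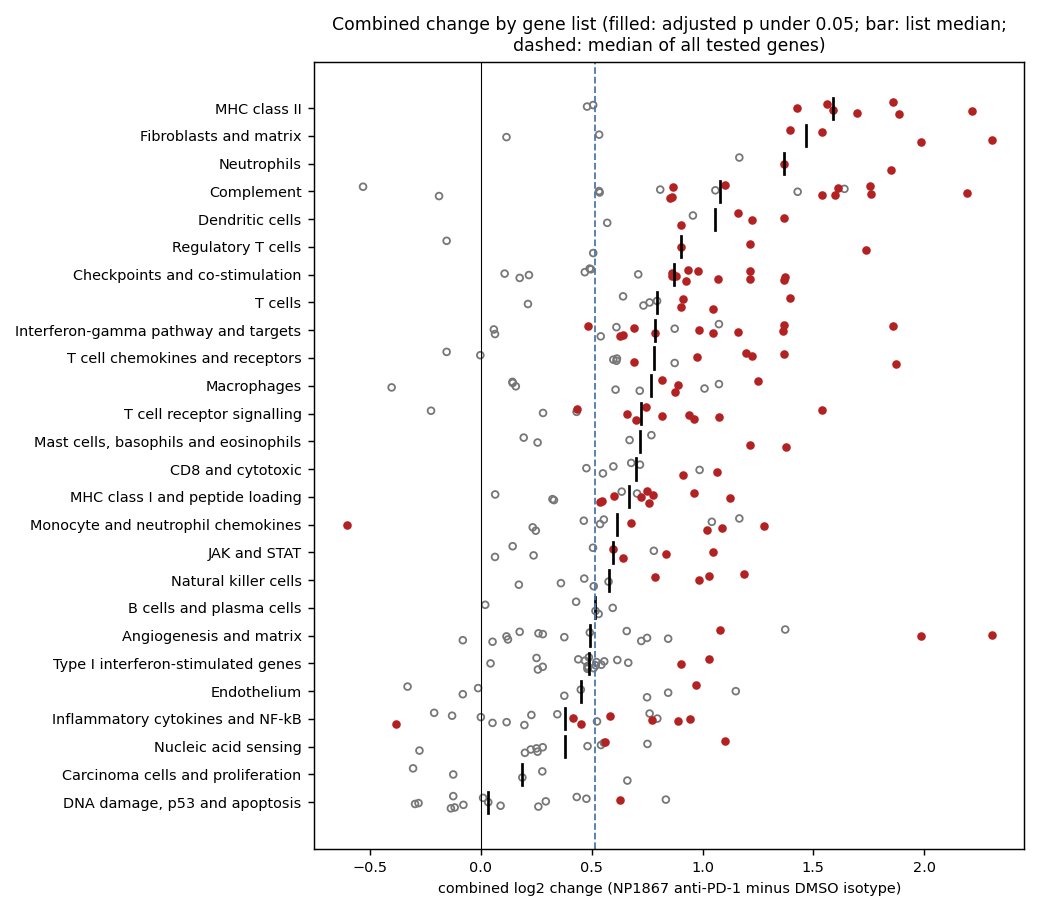
Combined log2 change (NP1867 anti-PD-1 minus DMSO isotype, horizontal axis) of every tested member of 26 gene lists; filled points passed an adjusted p of 0.05, short bars are list medians and the dashed line is the median of all tested genes, 0.52. MHC class II and fibroblast genes have the highest medians, 1.59 and 1.47, and DNA damage genes the lowest, 0.03; 7 medians on the right of 0 turn negative when each tumour is centred on its median.

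Among genes of the JAK and STAT pathway, which carries cytokine signals to the nucleus, 4 of 9 tested members rose and 0 fell, against 31% of all genes, with a median of 0.60 (0.10 after centring). Tyk2, a kinase of cytokine receptors, and Stat3, a transcription factor that they activate, were at 0.83 and 0.60 (adjusted p-values of 0.0284 and 0.0252) and, like Jak1, did not pass after centring. The lists that follow had medians below the 0.52 of all genes. Of 17 tested genes of angiogenesis and matrix 3 rose (median 0.49, and -0.004 after centring), namely Col1a1, Col3a1 and Thbs1, an inhibitor of vessel growth, at 1.08 (adjusted p = 0.0208). Of 9 endothelial genes 1 rose, Eng, a co-receptor for TGF-beta, at 0.97 (adjusted p = 0.0164), and the list's median of 0.45 turned to -0.05 after centring. Among 12 genes of nucleic acid sensing and its signalling 2 rose, Zbp1 (1.10, adjusted p = 0.0240) and Myd88 (0.56, adjusted p = 0.0240). The median of 0.38 turned to -0.12 after centring. Of 15 genes of DNA damage, p53 and apoptosis 1 rose, Casp1, the inflammasome caspase (0.63, adjusted p = 0.0448). The median of this list was 0.03 and turned to -0.46 after centring, which moves every change down by 0.496. There 0 members were higher and 6 lower, against 53 and 89 of all 600 tested genes. None of 5 tested carcinoma and proliferation genes passed (median 0.19, and -0.31 after centring). Birc5, the mitotic protein survivin, was at 8.20, 8.40 and 8.54 in the DMSO isotype tumours and at 7.82, 8.33 and 8.55 in the combined tumours (change -0.12, adjusted p = 0.430).

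The 10 largest falls were between -1.01 and -0.46 on the log2 scale, and in all 10 each combined tumour lay below the DMSO isotype mean. As with the rises, the genes were picked by this same change, so their separation is no further test. All 10 remained past the threshold after centring, but centring moves every change down by 0.496 and can only enlarge a fall. With Ptprc as a covariate 3 of the 10 passed. Itgb4, the beta chain of the laminin receptor of epithelial cells, fell from 7.36, 8.24 and 8.64 to 6.52, 7.17 and 7.63, a change of -1.01 (SE 0.29, a fold of 0.497, adjusted p = 0.0146). Its partner chain Itga6 fell by 0.51 (SE 0.17, adjusted p = 0.0253). For Itgb4, 4 of 6 combined tumours lay below every control. Ulbp1, a stress ligand of NKG2D, fell by 0.83 (SE 0.24, adjusted p = 0.0138), although DMSO isotype tumour 23, at 6.70 from 19 counts, was below all 6 combined tumours. Dusp4, a phosphatase that switches off MAP kinases, fell by 0.76 (SE 0.18, adjusted p = 0.00514), and Egr1, an immediate early gene of the same pathway, by 0.69 (SE 0.24, adjusted p = 0.0321). Tnfrsf12a, the receptor for TWEAK, fell by 0.47 (adjusted p = 0.0193), as did Il34, a ligand of Csf1r, by 0.47 (adjusted p = 0.0164). Gtf3c1, a subunit of the general factor TFIIIC, fell by 0.46 (SE 0.12, adjusted p = 0.0102) with no overlap (7.70 to 8.08 against 7.26 to 7.54).

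**Figure D3:**
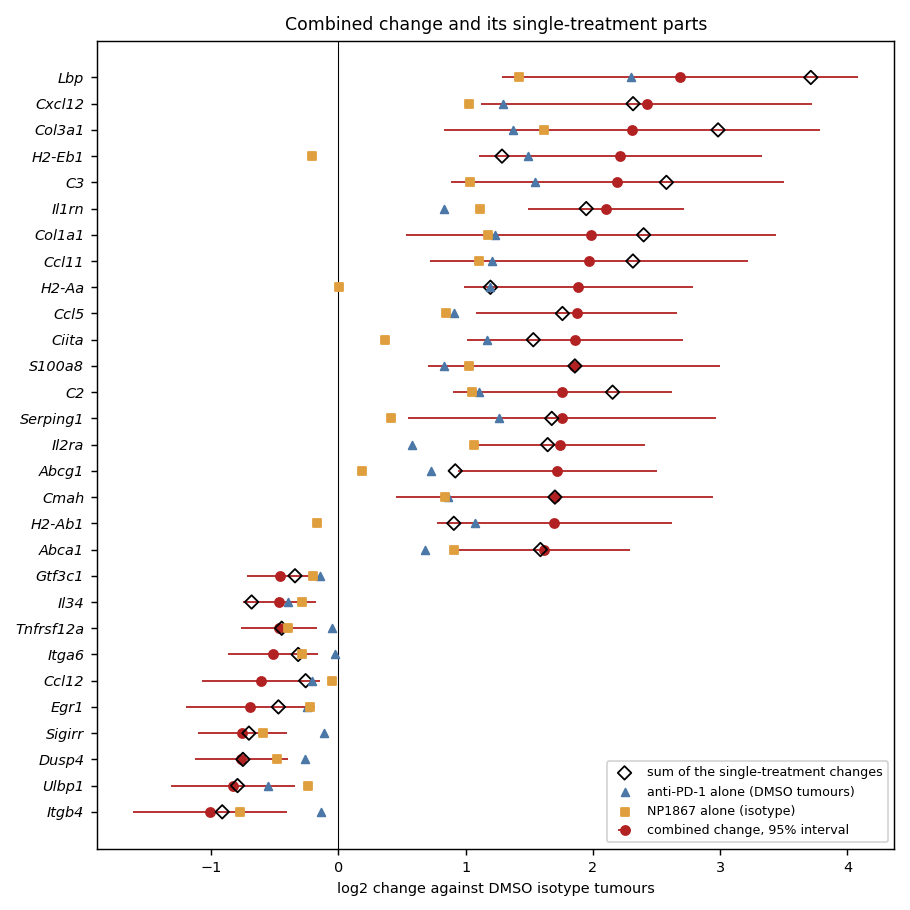
Log2 change against the DMSO isotype tumours (horizontal axis) for the 19 largest rises and 10 largest falls: combined change with its 95% interval, each single-treatment change, and their sum on the log2 scale; all are measured against the same 6 DMSO isotype tumours. Lbp has a sum of 3.71 against a combined change of 2.68, and H2-Eb1 a sum of 1.28 against 2.21.

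Each gene's total change was then set against the sum of its single-treatment changes on the log2 scale, where a sum stands for effects that multiply. The difference passed in 0 of 600 genes in limma, 0%, and 11 had an unadjusted p under 0.05 (1.83%). It also passed in 0 genes with limma-voom on the recovered counts. The precision was limited: the 95% interval of the difference extended by 0.81 to either side at the median gene and by 0.29 to 2.56 over all genes, and 589 of the 600 intervals held 0. The median difference was 0.13, with the total above the sum in 425 genes, and leaving out 1 tumour at a time moved that median between 0.07 and 0.24. It was 0.04 after centring, and its sign turned after quantile normalisation (-0.03) and without the tumours under 200000 counts (-0.03). The single-treatment changes and the combined change share the same 6 DMSO isotype tumours, so they are given side by side and were not correlated.

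**Figure D4:**
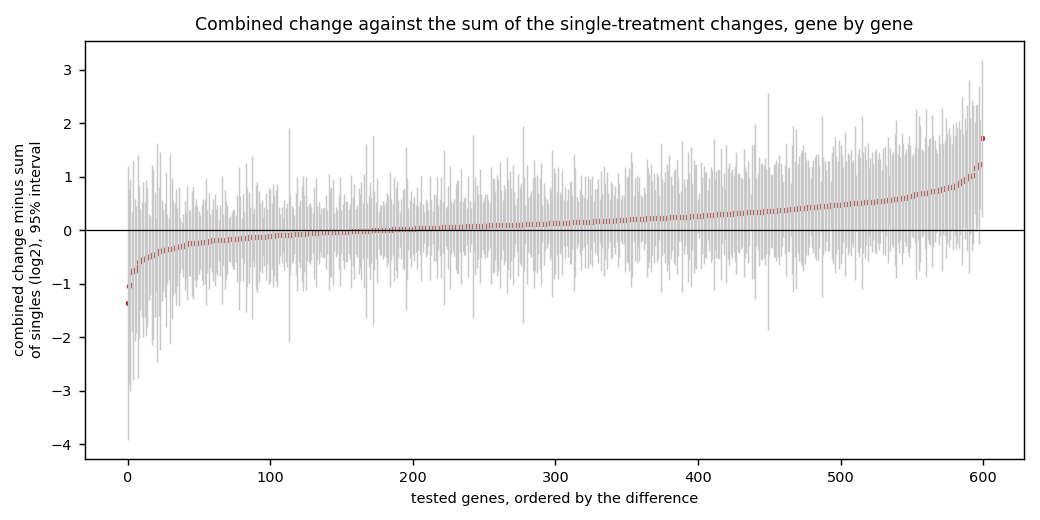
Combined change minus the sum of the single-treatment changes (log2, vertical axis) for the 600 tested genes in order of that difference; red points are estimates and grey lines 95% intervals. Of the 600 intervals 589 hold 0, and 0 genes passed an adjusted p of 0.05.

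For the 19 largest rises, both single treatments pointed the same way in 17. The exceptions were H2-Eb1 and H2-Ab1, for which NP1867 alone gave -0.21 and -0.17. The sum exceeded the total in 8 of the 19 and fell short of it in 11, and all 19 intervals of the difference held 0. Il1rn changed by 0.83 with anti-PD-1 alone and by 1.11 with NP1867 alone, a sum of 1.95 beside the total of 2.10. Its difference was 0.16 with a 95% interval of -0.71 to 1.02.

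Among class II genes, H2-Aa changed by 1.19 with anti-PD-1 alone and by 0.00 with NP1867 alone, a sum of 1.19 beside 1.88, and the interval of the difference, -0.58 to 1.96, held 0. For H2-Eb1 the difference was 0.93 (-0.64 to 2.50). Over the 9 tested class II genes the medians were 1.02 with anti-PD-1 alone, -0.19 with NP1867 alone and 1.59 combined. Ccl5 changed by 0.91 and 0.85 alone and by 1.87 combined, and Cxcl12 by 1.29 and 1.02 alone and 2.42 combined. For Lbp the sum of 3.71 was above the total of 2.68, and its interval, -3.01 to 0.95, also held 0. Gzmb changed by -0.01 and 0.28 alone and by 1.07 combined. Of the falls, Itgb4 and Sigirr changed by -0.14 and -0.11 with anti-PD-1 alone and by -0.77 and -0.59 with NP1867 alone.

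The lowest p-values of the difference belonged to Lilra5, an activating receptor of myeloid cells (1.23, SE 0.40, unadjusted p = 0.00521), and Il12rb1, a chain of the interleukin-12 receptor (1.17, unadjusted p = 0.00948). They were followed by Rel, an NF-kB subunit of lymphocytes (0.56), Klrc2, the activating receptor NKG2C (1.72), Xcr1 (0.97), Irak2, a kinase of interleukin-1 receptor signalling (0.93), Il7r, the interleukin-7 receptor of resting T cells (1.21), Mertk, a receptor for dying cells (0.74), Notch1, a receptor for ligands on neighbouring cells (0.47) and Cd53, a leukocyte tetraspanin (0.81). None passed, with an adjusted p of 0.995 for each. The Lilra5 change was -0.69 and -0.82 with the single treatments and -0.28 combined, so that a positive difference came with negative changes. Il7r rose in the combined comparison by 1.42 (SE 0.39, adjusted p = 0.0120), against 0.34 and -0.14 with the single treatments.

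With anti-PD-1 alone 0 of 600 genes passed (0%; 85 genes, or 14.2%, had an unadjusted p under 0.05), and with NP1867 alone 1 passed (0.167%; 46 or 7.67% unadjusted). With array weights, which give less weight to tumours that vary more, anti-PD-1 alone gave 273 calls, 250 higher and 23 lower, and NP1867 alone gave 13. The gene called for NP1867 in the deposited values was Spn, the leukocyte sialoglycoprotein CD43, chosen here after its values were seen, at -0.60 with NP1867 alone and -0.27 combined (adjusted p = 0.0601). Medians over all tested genes were 0.23 with anti-PD-1 alone, 0.10 with NP1867 alone and 0.52 combined. The combined change is also the sum of a single-treatment change and a second contrast. NP1867 was given only in culture before implantation, so no tumour had it after the antibody. Adding anti-PD-1 to NP1867 tumours gave 74 calls (12.3%), 72 higher and 2 lower. That count was 14, 30 and 27 without combined tumours 78, 30 and 45, it was 47, 198, 39 and 27 without NP1867 isotype tumours 10, 47, 49 and 57, and it was 131 without DMSO isotype tumour 23. NP1867 against DMSO tumours under anti-PD-1 gave 0 (69 or 11.5% unadjusted). When anti-PD-1 was added, 7 of 9 class II genes and 4 of 9 T cell markers passed. Total minus sum is, gene by gene, the test of whether the anti-PD-1 change differed between NP1867 and DMSO tumours, and it passed in 0 genes. The difference between the counts of calls was not tested.

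**Figure D5:**
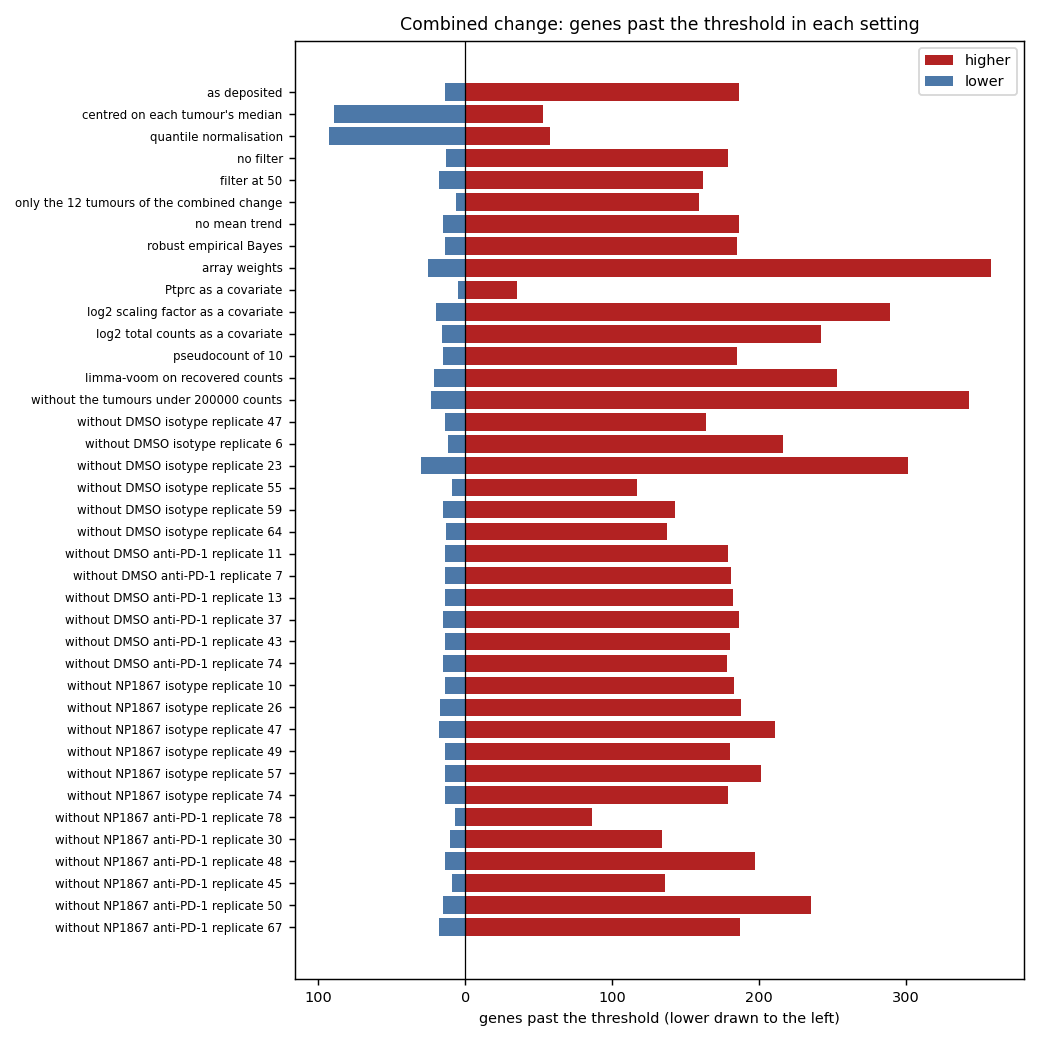
Genes past an adjusted p of 0.05 in the combined comparison under the deposited values and 38 other settings (horizontal axis, number of genes, higher to the right and lower to the left). As deposited, 186 were higher and 14 lower; centring on each tumour's median gave 53 and 89, and Ptprc as a covariate gave 35 and 5.

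Ptprc, the leukocyte marker CD45, was at 8.12, 8.74 and 9.13 in the DMSO isotype tumours and at 8.92, 9.24 and 10.23 in the combined tumours, a change of 0.66 (SE 0.28, adjusted p = 0.0664). With Ptprc as a covariate, 35 genes were higher and 5 lower, and 34 of the 35 were among the 186. These included Il1rn (1.83, adjusted p = 0.00178), Irf8 (0.88, adjusted p = 0.00695), Ccl5 (1.07, adjusted p = 0.00695), H2-Aa (1.04, adjusted p = 0.0374) and Cd274 (0.94, adjusted p = 0.0121). Of the 19 largest rises 9 passed with Ptprc as a covariate. Those that did not included Lbp (1.46, adjusted p = 0.0848), H2-Eb1 (1.39, adjusted p = 0.0730), H2-Ab1 (0.82, adjusted p = 0.0944), C3 (1.02, adjusted p = 0.174), Col3a1 (0.83, adjusted p = 0.232) and Col1a1 (0.48, adjusted p = 0.460). Of the 9 tested class II genes 3 passed with this covariate, and the list's median was 0.82. Across the deposited values and all 38 other settings, 26 genes were called higher and 3 lower each time a setting tested them. Of those named here, Abca1, Abcg1, C1ra, C2, Ccl5, Cd274, Ciita, Csf3r, Cxcl12, H2-Aa, H2-DMa, H2-T23, Icos, Il1rn, Il2ra, Irf8, Slc11a1 and Thy1 were among the higher genes, and Dusp4, Gtf3c1 and Sigirr were the lower genes.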

How the data were processed

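The deposited table held log2 values of 750 genes in 24 tumours; per the labels' protocols, RNA came from 3 curls of 10 um of each fixed tumour, with 100 ng hybridised to the NanoString panel. The authors' normalisation of these log2 values is not given in the sources used here. Whole counts were recovered by dividing each tumour's linear values by 1 factor (100.0% whole within 0.05), with factors of 0.522 to 5.46 and totals of 62699 to 687032 counts; counting error is therefore largest in the tumours with few counts, and p-values cover the spread between tumours only. Genes with a mean of at least 20 were fitted in limma 3.58.1 (R 4.3.3) with group means of all 4 groups, a mean trend and empirical Bayes, two-sided, with Benjamini-Hochberg adjustment over 600 genes at 0.05; total minus sum was a contrast of the same fit. Exact permutation tests used all 924 assignments of 6 against 6. The scripts were checked on simulated data. Named genes were, among those that passed, the 20 that rose most and the 10 that fell most, the 10 lowest p-values of total minus sum, up to 4 lowest p-values of each list and a set of immune genes, the latter including Mki67, which is not analysed here. Values of a few named genes, 1 of the 20 rises among them, are not reported here. The tumours, lists and members were chosen with earlier results of these data known. Of the gene names, 736 matched RefSeq symbols, 8 an older name and 6 none. No pair of tumours had identical values (276 pairs). Alternatives were other scalings, filters, fits and covariates and leaving out tumours. Promoters came from RefSeq's table for GRCm38.p6.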

Additional observations from a re-analysis of the deposited data

Results flagged for a closer look

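In 264 groups of 6 tumours examined over the named genes, 22 single tumours (8.33%) stood farther from their nearest neighbour than Dixon's critical value of 0.625 of the group's range; chance flags about 1 in 20 groups, and no cause was tested. DMSO isotype tumour 23, the tumour with the fewest counts, held 11 of them. It was high for Ifitm1 (7.15 from 26 counts), Icosl (5.77), Ccl4 (7.09), Ccl22 (6.70), Eomes (6.91), Ikzf2 (6.54), Cd22 (6.70) and Cr2 (7.09). It was low for Ulbp1 (6.70), Itga6 (8.54) and Cxcl16 (7.03). DMSO isotype tumour 6 was high for Stat3 (9.19), Thy1 (9.02), Arg1 (6.20) and Ccnd3 (8.84), and tumour 55 of the same group was low for Cybb (8.68). Among the combined tumours, tumour 78 was high for S100a8 (10.23) and low for Sigirr (7.56), tumour 67 was high for Il34 (8.12) and low for Foxp3 (2.04 from 3 counts), tumour 30 was high for Tnfrsf9 (7.89) and tumour 48 was low for Tnfaip3 (7.32).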

How the results depend on the processing

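The combined comparison gave 383 calls with array weights, 40 with Ptprc as a covariate, 309 with the log2 scaling factor as a covariate and 366 without the tumours under 200000 counts, against 200 as deposited; leaving out 1 tumour gave 93 to 331. Anti-PD-1 alone gave 1 call after centring, 1 after quantile normalisation, 273 with array weights and 1 without the low-count tumours, against 0, and 0 to 0 when 1 tumour was left out. NP1867 alone gave 0 after centring, 0 after quantile normalisation, 13 with array weights and 2 with Ptprc, against 1. Anti-PD-1 added to NP1867 tumours gave 267 with array weights, 16 with Ptprc, 122 with the scaling factor, 130 with log2 total counts and 139 without the low-count tumours, against 74, and 14 to 198 when 1 tumour was left out. NP1867 against DMSO tumours under anti-PD-1 gave 0 to 2 when 1 tumour was left out. Total minus sum gave 0 calls in every setting run. Its median of 0.13 turned to -0.03 after quantile normalisation and to -0.03 without the low-count tumours. The median combined change of 0.52 became 0.021 after centring, -0.04 after quantile normalisation and 0.22 with Ptprc, and lay between 0.43 and 0.64 when 1 tumour was left out.

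The combined change turned negative after centring for Rel (-0.0434), Klrc2 (-0.0291), Mertk (-0.34), Cd53 (-0.17), Ifi35 (-0.0146), Casp8 (-0.20), Tlr3 (-0.0141), Cr2 (-0.0657) and Ccnd3 (-0.22). After quantile normalisation it did so for Il12rb1 (-0.12), Rel (-0.0717), Klrc2 (-0.20), Xcr1 (-0.0764), Irak2 (-0.28), Mertk (-0.42), Cd53 (-0.38), Casp8 (-0.10), Tlr3 (-0.10), Tlr7 (-0.10), Eomes (-0.0105), Cd22 (-0.23), Cr2 (-0.29), Ms4a1 (-0.0465), Ccnd3 (-0.16) and Ifng (-0.14). With Ptprc as a covariate it did so for Mertk (-0.0851) and Csf1r (-0.0136), and Lilra5 turned positive (0.10) without the low-count tumours. Over the named genes and all settings, 4242 values kept direction and side of the threshold, 369 lost the threshold, 191 gained it and 28 turned; the cause was not tested. The low-count control tumours limit the depth of the comparison. The labels name no pairing of tumours, so no paired analysis was run.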
